A study of Mus musculus with 24 samples.

Results

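The secreted proteins Saa3, Lcn2, Lrg1 and Wfdc21 are the subject here. Their genes are 4 of the 13290 genes listed in all 6 deposited count tables, and all 4 were found there. They were chosen by measured values, namely large rises in treated cells and counts in the vesicles of control cells, so those values describe them and carry no test. RNA was sequenced from BV2, an immortalised mouse microglial line, and from extracellular vesicles (EVs), the membrane particles that this line releases. Lipopolysaccharide (LPS), a bacterial wall component, was given at 100 ng/mL. The cytokines IL-10 and TGF-β were each given at 50 ng/mL. All 3 treatments lasted 72 h, and controls were left untreated. There were 3 libraries of cells and 3 of EVs for each of the 4 conditions, 24 in all. A transformed line was the only source of cells. The labels do not say whether a group's libraries came from separate cultures, so the spread behind each p-value may be technical.

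Acute-phase proteins are secreted in large amounts during infection and injury, by the liver and also by activated macrophages. Bacterial products act through TLR4 and NF-kB, while IL-6 and IL-10 act through STAT3, and C/EBP factors take part in switching on many acute-phase genes. Saa3 is a serum amyloid A protein made mainly outside the liver, and Lcn2 is a lipocalin that withholds iron from bacteria by binding their siderophores. Lrg1 is a leucine-rich-repeat glycoprotein that binds the TGF-β co-receptor endoglin, and Wfdc21 belongs to the whey acidic protein (WAP) family.

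The 250 bases before the start of 3 members are shown because these genes switched together or apart with LPS and IL-10. They are RefSeq sequences of build GRCm38.p6, written 5′ to 3′ along the gene's own strand, which is the minus strand for all 3. The windows are chr7:46715677-46715926 for Saa3, chr2:32387740-32387989 for Lcn2 and chr17:56121947-56122196 for Lrg1. Capitals mark a match to the C/EBP motif TTGCNNAA.
Saa3: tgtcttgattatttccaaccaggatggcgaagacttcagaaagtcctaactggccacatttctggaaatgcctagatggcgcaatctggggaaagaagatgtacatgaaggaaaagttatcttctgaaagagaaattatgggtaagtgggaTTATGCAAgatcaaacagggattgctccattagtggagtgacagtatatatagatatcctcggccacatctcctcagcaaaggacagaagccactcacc
Lcn2: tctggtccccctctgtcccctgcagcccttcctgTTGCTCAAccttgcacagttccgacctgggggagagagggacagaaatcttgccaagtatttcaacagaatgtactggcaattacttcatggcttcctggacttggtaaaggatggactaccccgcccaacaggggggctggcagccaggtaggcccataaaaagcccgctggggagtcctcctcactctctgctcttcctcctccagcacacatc
Lrg1: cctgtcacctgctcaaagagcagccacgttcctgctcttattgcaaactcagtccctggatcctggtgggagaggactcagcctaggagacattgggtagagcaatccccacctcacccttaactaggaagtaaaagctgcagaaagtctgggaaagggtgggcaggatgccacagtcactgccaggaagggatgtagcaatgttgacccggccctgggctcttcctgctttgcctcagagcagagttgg
The match before Saa3, TTATGCAA, is the motif on the opposite strand and spans positions -99 to -92 from the start. The match before Lcn2, TTGCTCAA, lies on the gene's strand at -216 to -209. The window of Lrg1 held no match. None of the 3 windows held the STAT motif TTCNNNGAA, the TATA motif TATAAA or the NF-kB motif, searched on both strands. Of 32841 mouse promoters of the same length, 9.57% held the C/EBP motif, 7.02% the STAT motif, 12.4% the TATA motif and 7.25% the NF-kB motif. A match is a run of letters and not a shown binding site. In the same annotation Saa3 lies beside Saa1, Saa2 and Saa4, and Wfdc21 beside Wfdc17 and Wfdc18. Saa1, Saa2, Saa4 and Wfdc18 were not analysed here, and how reads shared with close relatives were counted is not given in the sources used here, so counts of Saa3 and Wfdc21 may hold such reads.

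Depth ran between 26.14 and 42.13 M counts in cells and between 3.02 and 17.98 M in EVs. Levels are given in CPM, counts scaled to the library total, and a count of 0 allows up to 3 counts, or 0.071 to 0.115 CPM in cells and 0.167 to 0.994 CPM in EVs. These limits cover counting error only. The EV libraries stand apart from one another. In LPS EVs 0.49% to 4.42% of the listed genes had no count, against 19.58% to 50.00% in the other 9 EV libraries and 4.91% to 7.25% in cells. Microglial and macrophage markers, of which 11 of 12 were listed, summed to 12992 to 17509 CPM in cells and 2320 to 14915 CPM in EVs. Of 11 neutrophil markers 7 were listed, and they summed to 28.3 to 37 CPM in LPS cells, 39 to 40.6 CPM in IL-10 cells, 112 to 142 CPM in TGF-β cells and 35.6 to 38.7 CPM in control cells. In EVs they summed to 69.7 to 191 CPM. Ly6g, Mpo, Ltf and S100a9 were not analysed here. Of 8 hepatocyte markers 2 were listed, and they summed to 15.3 to 69.9 CPM in LPS EVs, against at most 0.878 CPM in the other EV libraries and 1.68 CPM in cells. Their part in the results was not tested.

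Saa3 was among the most abundant transcripts of LPS cells, and IL-10 cells held it at a lower but still high level. The 3 LPS libraries had 3975, 4053 and 4198 CPM of Saa3, which ranked it 14th to 16th of all listed genes. IL-10 cells had 805, 896 and 1165 CPM. TGF-β cells had 2.9, 3.1 and 3.23 CPM, against 7.88, 6.83 and 6.88 CPM in control cells. No group overlapped another, and the order was LPS, IL-10, control and TGF-β. The mean was 566-fold higher in LPS cells (4075 ± 113 CPM) and 133-fold higher in IL-10 cells (955 ± 187 CPM) than in control cells (7.2 ± 0.59 CPM; SD, n = 3 each). In TGF-β cells it was 2.34-fold lower (3.08 ± 0.166 CPM). On edgeR's scale the log2 fold changes were 9.08 (SE 0.09) for LPS, 7.21 (SE 0.21) for IL-10 and -1.22 (SE 0.20) for TGF-β. The 3 comparisons share the same control libraries. Over the 4 members, edgeR's filter on low counts passed 3 with LPS (not Lrg1), 3 with IL-10 (not Wfdc21) and 2 with TGF-β (Saa3 and Lrg1), and it can pass a gene through the group where it is high.

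Lcn2 was high in LPS cells and near its detection limit elsewhere. LPS cells had 1627, 1924 and 1889 CPM, ranking it 40th to 45th of all listed genes. IL-10 cells had 0.413, 0.518 and 0.401 CPM, which are 15, 18 and 14 counts. TGF-β cells had 1 count in all 3 libraries together, and control cells had 7 counts, all in library 2. LPS cells stood 4085-fold above IL-10 cells, the next highest group (1813 ± 163 and 0.444 ± 0.0641 CPM; SD, n = 3 each). The ratio to control cells, 24793, rests on those 7 counts. The edgeR log2 fold change was 14.35 (SE 0.26), and it was 18.81 without control library 2, so its size is set by that library. For IL-10 it was 2.61 (SE 0.89), and 6.92 without the same library.

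Lrg1 was highest in IL-10 cells. They had 21.8, 20.2 and 17.9 CPM. LPS cells had 0.19, 0.14 and 0.122 CPM, and TGF-β cells 1.01, 0.88 and 0.837 CPM. Control cells had 0.186, 0.251 and 0.101 CPM, only 3 to 8 counts each. LPS and control libraries overlapped, TGF-β libraries all lay above both, and IL-10 libraries lay above all others. The mean was 111-fold higher in IL-10 cells (20 ± 1.95 CPM; log2 fold change 6.91, SE 0.24) and 5.07-fold higher in TGF-β cells (0.909 ± 0.0891 CPM; log2 fold change 2.32, SE 0.54) than in control cells (0.179 ± 0.075 CPM; SD, n = 3 each). Between the treatments, IL-10 cells held 133-fold more Lrg1 than LPS cells.

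Wfdc21 was another LPS transcript, at a far lower level. LPS cells had 22.5, 25.5 and 22.7 CPM, or 948, 732 and 744 counts. IL-10 cells had 0.0275, 0.201 and 0.143 CPM, at most 7 counts, and no count was seen in TGF-β or control cells. Against the limit of 3 counts per control library, LPS cells were at least 231-fold higher. Against IL-10 cells the ratio of means was 190 (23.6 ± 1.7 CPM in LPS cells).

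**Figure D1:**
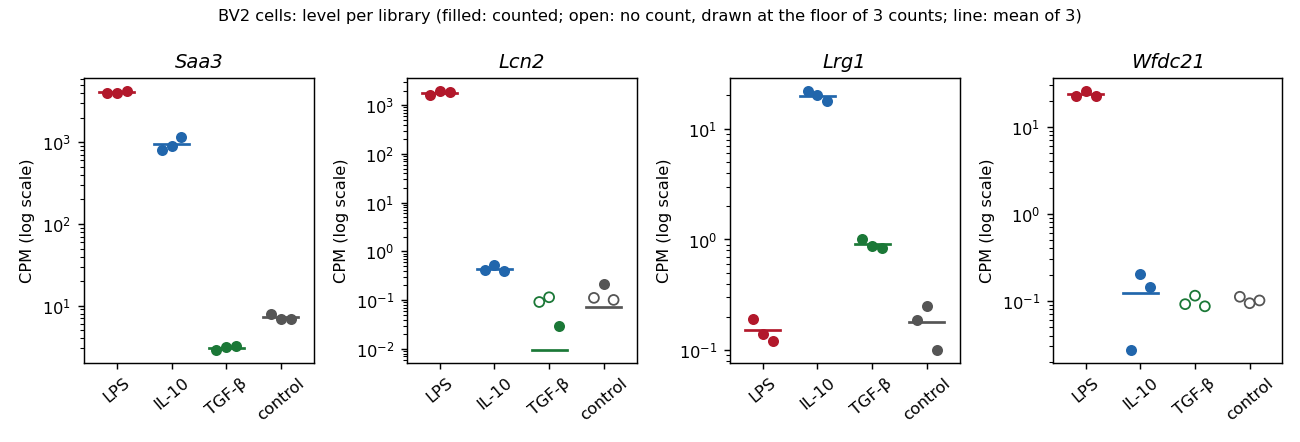
Level of each of the 4 genes in the 12 cell libraries, in CPM on a log scale, with points for libraries, lines for means of 3 and open points for libraries with no count, drawn at 3 counts. LPS points lie highest for Saa3, Lcn2 and Wfdc21, and IL-10 points lie highest for Lrg1.

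Levels of different genes are compared per kilobase of exon. In LPS cells Saa3 stood at 1564 ± 43.3 CPM per kb, Lcn2 at 691 ± 62 and Wfdc21 at 54.3 ± 3.92, with Lrg1 at 0.107. In IL-10 cells Saa3 stood at 367 ± 71.9 CPM per kb and Lrg1 at 14.2 ± 1.39. Wfdc21 (0.286 ± 0.204, 13 counts) and Lcn2 (0.169) overlapped there, so their order is not set. Together the 4 genes took 0.562% to 0.611% of all counts in LPS cells, 0.0827% to 0.118% in IL-10 cells, 0.000391% to 0.00041% in TGF-β cells and 0.000698% to 0.000806% in control cells. Saa3 made up most of this share in each group.

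The choice of members used these contrasts, so the calls over all genes are given as background only. At an edgeR adjusted p under 0.05, 28.6% of 11951 tested genes were higher and 27.5% lower in LPS cells. In IL-10 cells 12.3% of 11790 genes were higher and 10.9% lower, and in TGF-β cells 14.5% of 11798 genes were higher and 15.4% lower. Under scaling by library total, which sets the median gene of IL-10 cells at -0.16 on the log2 scale, 776 genes were higher and 3163 lower with IL-10, in place of 1447 and 1286.

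Saa3 was counted in all 12 EV libraries, with far more spread within groups than in cells. It reached 8109, 4320 and 5309 CPM in LPS EVs. It had 283, 275 and 2274 CPM in IL-10 EVs and 145, 871 and 50.9 CPM in TGF-β EVs, against 1415, 321 and 1395 CPM in control EVs. LPS EVs lay above all other EV libraries, and the other 3 groups overlapped. The share of all genes separated in this way is not given here. The mean of LPS EVs (5913 ± 1966 CPM) was 5.67-fold that of control EVs (1044 ± 626 CPM; SD, n = 3 each). IL-10 EVs (944 ± 1151 CPM) and TGF-β EVs (356 ± 449 CPM) overlapped control EVs. On edgeR's scale the log2 fold changes were 2.41 (SE 0.68) for LPS, -0.12 (SE 0.92) for IL-10 and -1.35 (SE 1.01) for TGF-β EVs. The value for IL-10 was -1.67 without IL-10 EV library 3, and that for TGF-β was -3.11 without TGF-β EV library 2.

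Lcn2 in EVs did not follow its level in cells. LPS EVs had 331, 313 and 408 CPM, a narrow range. IL-10 EVs had 40.4, 0 and 466 CPM and TGF-β EVs 39.7, 227 and 18.7 CPM, against 403, 42.3 and 230 CPM in control EVs. The control values are 7239, 239 and 1612 counts, and each is far above the 7 counts of all control cells together. LPS and control EVs overlapped, with means of 351 ± 50.3 and 225 ± 180 CPM (SD, n = 3 each). Its log2 fold changes against control EVs were 0.52 (SE 0.70) for LPS, -0.40 (SE 1.80) for IL-10 and -1.01 (SE 1.04) for TGF-β, none larger than its error. Without 1 library they ranged from 0.04 to 1.15 for LPS, -3.17 to 0.26 for IL-10 and -2.61 to -0.38 for TGF-β.

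Wfdc21 and Lrg1 were sparse in EVs. Wfdc21 had 23.8, 10.3 and 11.8 CPM in LPS EVs, 2.81, 0 and 12.4 CPM in IL-10 EVs and 0, 10.3 and 0 CPM in TGF-β EVs, against 3.78, 2.48 and 12.8 CPM in control EVs. Its control EVs held 68, 14 and 90 counts, while control cells held none. Lrg1 had 0, 10.3 and 6.21 CPM in LPS EVs and 1.93, 0 and 0 CPM in IL-10 EVs. It had no count in TGF-β EVs, and in control EVs 67 counts that all lay in library 2. Lrg1 thus met the choice for control EVs through 1 library alone.

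**Figure D2:**
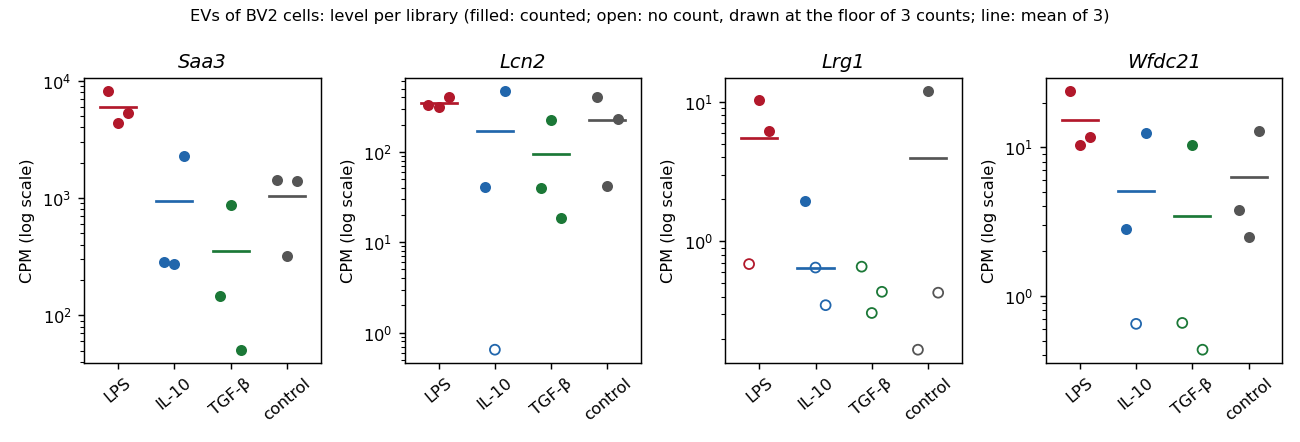
Level of each of the 4 genes in the 12 EV libraries, in CPM on a log scale, drawn as for cells. Of these 4 genes, Saa3 alone has its 3 LPS libraries above all others, and TGF-β libraries range between 50.9 and 871 CPM for Saa3.

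EVs were also set beside the cells that released them. High control EV levels over low control cells were part of the choice of members, so the control folds describe that choice. In control samples the mean of Saa3 was 145-fold higher in EVs than in cells, and 119-fold to 195-fold without 1 EV library. That of Lcn2 was 3076-fold higher, resting on 7 counts in cells, and 1861-fold to 4324-fold without 1 EV library. That of Wfdc21 was at least 62.3-fold higher, or at least 30.6-fold without EV library 3. Acod1 and Marco, high in LPS cells, were higher in control EVs than in control cells too (439 ± 453 and 139 ± 122 CPM in EVs, 19.2 and 7.39 CPM in cells). Whether RNA carried over between EV preparations was not tested, and control EV levels are given under that limit. In LPS samples Saa3 was 1.45-fold higher in EVs, while Lcn2 was 5.17-fold lower (351 ± 50.3 CPM in EVs and 1813 ± 163 CPM in cells). Wfdc21 was 1.54-fold lower in LPS EVs, with overlap between EVs and cells. In IL-10 samples the ratio of Saa3 in EVs to cells was 0.988, set by EV library 3 at 2274 CPM. Without that library it was 0.293, since the other EV libraries, at 283 and 275 CPM, lay below all IL-10 cell libraries. Lrg1 was 31-fold lower in IL-10 EVs, with counts in 1 EV library only. Cells and EVs were scaled to their own totals, so these are shares of each library's RNA and not amounts.

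The balance of Saa3 and Lcn2 was compared within libraries. There were 13.8, 13 and 24.5 Saa3 counts for each Lcn2 count in LPS EVs, against 2.44, 2.11 and 2.22 in LPS cells. IL-10 EVs had 7.02, at least 425 in library 2, which had no Lcn2 count, and 4.88, against 1948, 1732 and 2905 in IL-10 cells. TGF-β EVs had 3.66, 3.84 and 2.73, and control EVs 3.51, 7.58 and 6.07. LPS EVs thus lay above LPS cells without overlap. IL-10 EV libraries 1 and 3 lay below all IL-10 cell libraries, and library 2, known only as a lower bound, could not be placed. The control EV ratios lay nearer to those of LPS cells than to the 31.1 of control library 2, the one control cell library in which Lcn2 passed 3 counts. Within the IL-10, TGF-β and control EVs the library with most Lcn2 and most Saa3 was also the deepest of its group, at 8.62 M, 9.80 M and 17.98 M counts. Depth was not tested for its part in these values.

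Treated EVs were tested against each other, since the choice of members did not use those contrasts. The members were picked for large rises in treated cells, which released these EVs. The tests are thus not fully independent of the choice. One edgeR fit of all 12 EV libraries tested 12701 genes in each contrast. The 95% intervals are a normal approximation from the SE, which was derived from the edgeR test statistic. They can be narrower than the edgeR test implies. Saa3 was higher in LPS than in TGF-β EVs by 3.68 on the log2 scale (SE 1.07, 95% interval 1.58 to 5.78) and did not pass (edgeR adjusted p = 0.0822). It passed with DESeq2 (3.87, DESeq2 adjusted p = 0.00152) and in an edgeR fit of those 6 libraries alone (3.68, edgeR adjusted p = 0.0367). Against IL-10 EVs the difference was 2.46 (SE 1.02, 95% interval 0.47 to 4.45; edgeR adjusted p = 0.193). The median gene was itself shifted by 0.66 and 0.44 in these contrasts, and by 1.16 and 0.82 under scaling by library total.

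No other member passed in any pair of treated EVs. For Lcn2 the log2 difference was 1.46 (SE 1.52, 95% interval -1.51 to 4.43; edgeR adjusted p = 0.785) between LPS and TGF-β EVs and 0.86 (SE 1.50; edgeR adjusted p = 0.967) between LPS and IL-10 EVs. These were 2.95 without TGF-β EV library 2 and 3.56 without IL-10 EV library 3, and as low as 0.88 and 0.11 without another library. For Wfdc21 it was 1.80 (SE 2.23; edgeR adjusted p = 0.838) between LPS and TGF-β EVs, and 1.14 to 9.45 without 1 library. Between LPS and IL-10 EVs it was 1.40 (SE 2.21; edgeR adjusted p = 0.956), and 0.68 to 2.93 without 1 library. The highest of these values came without TGF-β EV library 2 and IL-10 EV library 3. Lrg1, with no count in TGF-β EVs, had an edgeR adjusted p of 0.284 against them and 0.9 against IL-10 EVs. These intervals are wide, and they do not show equal levels. On simulated counts the same test recovered 21.2% of 16-fold changes between LPS and TGF-β EVs, and 20.6% between LPS and IL-10 EVs. Few genes of any kind passed: 0.0472% between LPS and TGF-β EVs (6 genes, with 2495 at an unadjusted p under 0.05 and 1143 by DESeq2) and 0% between LPS and IL-10 EVs (2453 at an unadjusted p under 0.05, 974 by DESeq2). Between TGF-β and IL-10 EVs 0% passed edgeR as well, and 270 genes passed DESeq2.

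To see which genes had a profile like each member, 10892 named genes with a mean of 10 counts or more in cells were ranked. Gene models (Gm, Rik, AC, AL and BC names), names that start with a number and repeated symbols were left out. The ranking used the root mean square difference of centred log2 levels over the 12 cell libraries. Haptoglobin (Hp), which binds free haemoglobin and is a classical acute-phase protein, was nearest to Saa3 (difference 1.78, Pearson r 0.935). It averaged 349 ± 34.1 CPM in LPS cells, 13 ± 1.49 in IL-10 cells and 1.05 ± 0.209 in TGF-β cells, against 1.34 ± 0.208 in control cells. It was followed by Ltb4r1, a receptor for leukotriene B4 (2.21), Tarm1, a myeloid receptor (2.24), Ifi211 (2.29) and the water channel Aqp8 (2.30). These distances are large on the log2 scale, so by this measure none of the genes compared matched Saa3 closely. Pearson r with Saa3 was 0.946 for Ltb4r1, 0.981 for Tarm1, 0.961 for Ifi211 and 0.943 for Aqp8.

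Nearest to Lcn2 were the scavenger receptor Marco (2.24), Acod1, which makes itaconate (2.47), Wfdc21 itself (2.50), the chemokine Cxcl10 (2.55) and the GTPase Gbp2 (2.67). At the pseudocount of 0.1 CPM, nearest to Wfdc21 were the GTPase Gbp6 (0.35), Acod1 (0.46) and the transcription factor Spic (0.57). The potassium channel Kcnf1 (0.60) and H2-M2, a class I histocompatibility gene (0.62), followed. Wfdc21 was at or near 0 outside LPS cells, so these small distances depend on that pseudocount. A pseudocount of 1 CPM kept Gbp6 alone of these genes. Lrg1 was near Ly6c1, a surface antigen (0.95), Nxpe5 (1.08), Cd5l, a macrophage-secreted scavenger protein (1.15), and the collagenase Mmp8 (1.32). Cd5l averaged 41.8 CPM in IL-10 cells and 0.216 CPM in LPS cells, against 1.29 CPM in control cells. Mmp8 is also on the neutrophil marker list.

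These neighbours split in control EVs. Acod1 had 927, 33.1 and 357 CPM there and Marco 267, 23.6 and 127 CPM, ordered over the libraries as Lcn2 is. H2-M2 had 84.5, 10.5 and 37.5 CPM. Gbp6, Spic and Kcnf1 had no count in any control EV library, although their cell profiles were like that of Wfdc21, which had counts in all 3. Cxcl10 had 13.3, 0 and 16.4 CPM and Gbp2 17.4, 0 and 14.1 CPM. Ly6c1, Nxpe5 and Cd5l, near to Lrg1 in cells, were also without a count in control EVs. Mmp8, near to Lrg1 too, had 14.2, 17.7 and 0 CPM there.

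**Figure D3:**
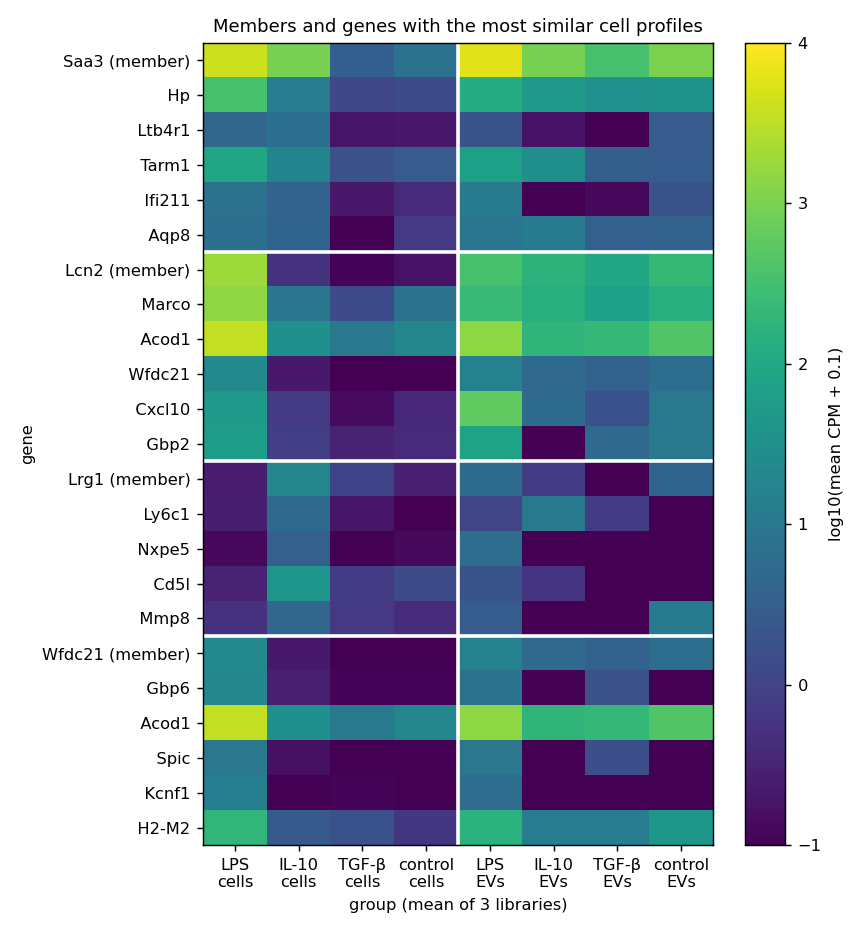
Mean level of each member and of genes nearest to it in the 8 groups, as log10 of mean CPM + 0.1, cells on the left and EVs on the right. Acod1 and Marco are bright in control EVs as Saa3 and Lcn2 are, while Gbp6, Spic and Kcnf1 are at the darkest value.

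The control EV counts of the members can be set beside those of other LPS-raised genes, with thresholds chosen after the values were seen. There were 13 other genes under 0.1 CPM in control cells and at 10 CPM or more in LPS cells. Of these 11, 12 and 13 had over 3 counts in the 3 LPS EV libraries, against 4, 1 and 2 in the 3 control EV libraries. A wider set, which includes the 13, held 41 other genes at least 50-fold higher in LPS than in control cells. Control levels under 0.1 CPM were taken as 0.1 CPM for that fold. Of the 41, 35, 40 and 38 had over 3 counts in LPS EVs, against 19, 10 and 15 in control EVs. Among all listed genes, 4.42%, 0.49% and 1.21% had no count at all in LPS EVs. In control EVs 28.98%, 33.09% and 33.45% had none. High detection in LPS EVs was thus not particular to these 2 sets. Saa3, Lcn2 and Wfdc21 had over 3 counts in all 3 control EV libraries. Most genes of the first set did not, and the members had been picked for such counts.

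The pathways around the members were followed in 5 lists of related genes, none holding a member. The counts of every list stand beside the calls over all tested genes. These were 28.6% higher and 27.5% lower with LPS, 12.3% and 10.9% with IL-10, and 14.5% and 15.4% with TGF-β. Of 25 tested acute-phase and secreted defence genes 17 rose and 5 fell in LPS cells, with a median log2 fold change of 1.68 beside 0.01 for all tested genes. Of the 17, Orm2, Cp, Serpina3g, Cfb, Camp, Ngp and Thbs1 had 0 to 21 counts in control cells and were tested in no other cell comparison. The filter thus passed them through LPS cells, where they are high, which raises the 17 and the median. The same limit holds for the counts and medians of all 5 lists. Hp rose 249-fold (edgeR adjusted p = 3.42e-19) and complement C3 rose 8.3-fold, to 1212 ± 37.4 CPM in LPS cells against 139 ± 5.08 CPM in control cells (edgeR adjusted p = 1.63e-17). Complement C4b fell 14.9-fold (10.1 ± 1.74 against 144 ± 4.74 CPM; edgeR adjusted p = 7.88e-16). In IL-10 cells 12 of 18 rose and 3 fell (median 1.33), C4b among those that rose (6.09-fold, 788 ± 66.1 against 144 ± 4.74 CPM; edgeR adjusted p = 8.98e-15). Hp rose 10.8-fold there and C3 2.13-fold. In TGF-β cells 5 of 18 rose and 6 fell (median -0.08), with the antiprotease Slpi down 2.95-fold (71.7 ± 7.8 against 213 ± 12.5 CPM; edgeR adjusted p = 5.15e-08) and the interleukin-1 antagonist Il1rn down 7.99-fold. C4b thus rose with IL-10 and fell with LPS, while Hp and C3 rose with both.

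Among WAP, lipocalin and leucine-rich-repeat relatives 5 of 12 rose and 5 fell in LPS cells (median -0.08). The shares of all tested genes there were 28.6% and 27.5%. In IL-10 cells 6 rose and 1 fell (median 0.24, beside 12.3% and 10.9%), and in TGF-β cells 1 rose and 5 fell (median -0.14, beside 14.5% and 15.4%). Wfdc17, the WAP gene beside Wfdc21, rose 6.28-fold in LPS cells (254 ± 12.8 CPM; edgeR adjusted p = 3e-15) and 9.84-fold in IL-10 cells (341 ± 61 CPM; edgeR adjusted p = 7.84e-06), and fell 4.52-fold in TGF-β cells (8.53 ± 0.819 CPM; edgeR adjusted p = 4.33e-08), against 38.7 ± 3.48 CPM in control cells. Wfdc17 thus rose with LPS and with IL-10, whereas Wfdc21 had at most 7 counts in an IL-10 library. Slpi, another WAP protein, rose 2.69-fold in LPS cells and 1.84-fold in IL-10 cells. Fabp4, a fatty-acid carrier of the lipocalin superfamily, rose 5.26-fold in IL-10 cells and fell 4.92-fold in TGF-β cells.

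Regulators of acute-phase genes passed in both directions in all 3 treatments, as did genes at large. Of 37 tested, 18 rose and 11 fell in LPS cells (median 0.24), beside 28.6% and 27.5% of all tested genes. In IL-10 cells 17 rose and 2 fell (median 0.29), beside 12.3% and 10.9%. In TGF-β cells 10 rose and 12 fell (median -0.09), beside 14.5% and 15.4%. Nfkbiz, an NF-kB partner needed for Lcn2 in mouse macrophages, rose 24.8-fold in LPS cells (83.7 ± 5.24 against 3.2 ± 0.805 CPM; edgeR adjusted p = 3e-15) and 2.26-fold in IL-10 cells (edgeR adjusted p = 0.000878). Cebpd rose 3.17-fold in LPS cells (40 ± 4.06 against 12 ± 0.717 CPM; edgeR adjusted p = 5.02e-10). In IL-10 cells it had 11.6 ± 0.652 CPM (edgeR adjusted p = 0.611). Socs3, the feedback inhibitor of STAT3 signalling, rose 9.72-fold in IL-10 cells (216 ± 10.7 against 24.7 ± 3.34 CPM; edgeR adjusted p = 1.41e-14) and about 2-fold in LPS cells (2.17) and TGF-β cells (2.08). Stat3 rose 1.72-fold in IL-10 cells (edgeR adjusted p = 1.3e-08) and had 229 ± 4.95 CPM in LPS cells against 220 ± 10.8 CPM in control cells (edgeR adjusted p = 0.954). The NF-kB relative Bcl3 rose 7.89-fold with IL-10, and the NF-kB inhibitor Nfkbia rose 14.7-fold with LPS. Cebpb passed in none of the 3 comparisons, and its treated libraries varied widely (86.5 ± 44.8 CPM in LPS cells, 73.6 ± 51.7 in IL-10 cells, 31.5 ± 39.2 in TGF-β cells and 65.6 ± 4.4 in control cells).

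Of 32 tested cytokines and receptors upstream of these genes 14 rose and 14 fell in LPS cells (median 0.01). The shares of all tested genes there were 28.6% higher and 27.5% lower. Il1b rose 59.1-fold (625 ± 98.3 against 10.1 ± 0.525 CPM; edgeR adjusted p = 6.57e-14) and Il1a 20.2-fold. Il6 had 78 counts in LPS cells against none in control cells (0.741 ± 0.129 CPM; edgeR adjusted p = 4.19e-05). The IL-10 receptor chain Il10ra fell in all 3 treatments, 2.37-fold with LPS, 1.97-fold with IL-10 and 1.44-fold with TGF-β. In IL-10 cells 7 of 30 rose and 6 fell (median 0.02), and in TGF-β cells 4 rose and 12 fell (median -0.29).

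Receptors and partners of the 4 proteins rose in 12 and fell in 5 of 26 cases in LPS cells (median 0.32). Among all tested genes 28.6% rose and 27.5% fell there. For Saa proteins, the receptor gene Tlr2 rose 8.16-fold in LPS cells and 3.62-fold in TGF-β cells (183 ± 2.24 against 50.6 ± 2.92 CPM; edgeR adjusted p = 1.59e-09). The formyl peptide receptor Fpr2 had 5.58 ± 0.289 CPM in LPS cells and 1 count in control cells (edgeR adjusted p = 9.81e-11). Mmp9, the protease that Lcn2 binds, rose 9.55-fold with LPS (80.5 ± 6.38 against 8.05 ± 0.529 CPM; edgeR adjusted p = 8.67e-15) and fell 1.84-fold with IL-10 and 4.01-fold with TGF-β. Eng, the endoglin that Lrg1 binds, was low and passed in no cell comparison (1.57 ± 0.792 CPM with LPS, 0.995 ± 0.31 with IL-10, 1.33 ± 0.0377 with TGF-β and 0.754 ± 0.133 in control cells). Id3, a target of TGF-β family signals, rose 16.5-fold in TGF-β cells and 7.04-fold in LPS cells. It rose 2.33-fold in IL-10 cells, whose libraries overlapped those of control cells. In IL-10 cells 8 of 23 rose and 3 fell (median 0.09), and in TGF-β cells 8 rose and 7 fell (median -0.04).

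**Figure D4:**
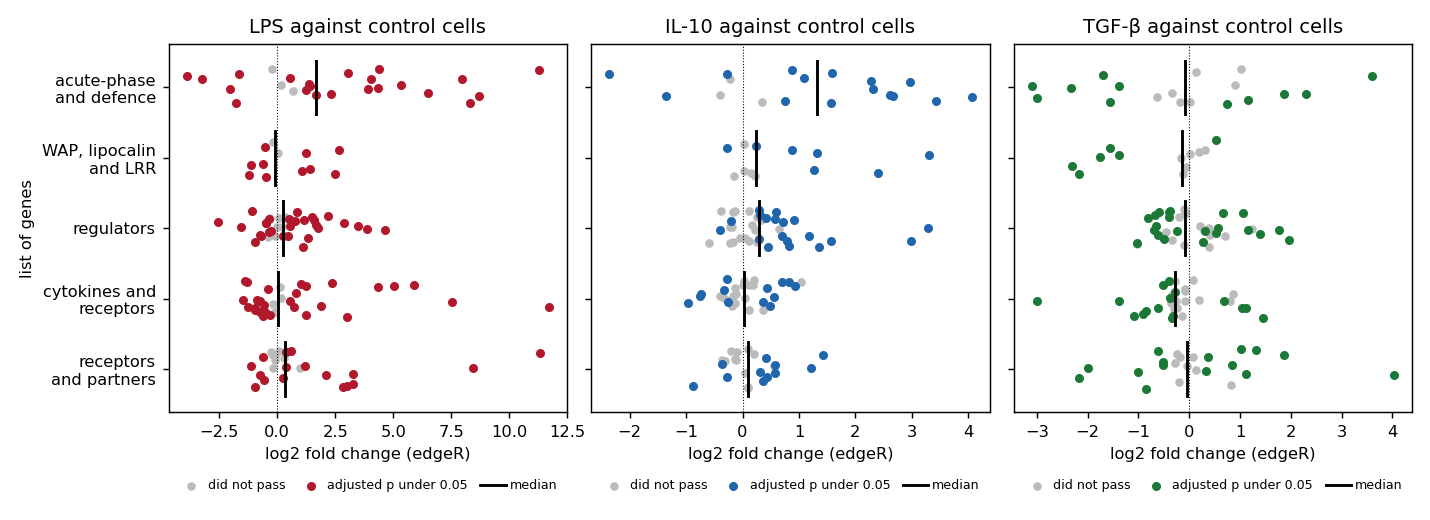
Fitted log2 fold change of each tested gene of the 5 lists in LPS, IL-10 and TGF-β cells against control cells, coloured where the edgeR adjusted p was under 0.05, with a bar at the list's median. The acute-phase list has medians of 1.68 with LPS, 1.33 with IL-10 and -0.08 with TGF-β, and genes with no control count have fitted values that depend on edgeR's prior count.

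All lists together gave 62 genes higher and 37 lower of 124 tested in LPS cells, 48 and 13 of 112 in IL-10 cells, and 27 and 37 of 112 in TGF-β cells. Beside them, all tested genes gave 28.6% higher and 27.5% lower with LPS. They gave 12.3% and 10.9% with IL-10, and 14.5% and 15.4% with TGF-β. In IL-10 cells scaling by library total gave 41 list genes higher and 26 lower. The filter on low counts limits these counts as it does those of each list.

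In EVs the same lists gave little. Of 117 tested list genes 20 were higher and 0 lower in LPS than in control EVs. Calls over all 12216 tested genes came to 14.2% and were one-sided too, with 1703 higher and 29 lower (98.3% higher). The split of the list genes was thus not particular to them. The median log2 fold change over all genes was 0.33 (0.54 under scaling by library total). DESeq2 gave 23 list genes higher and 1 lower. Il1b was among those that passed (900 ± 179 against 49.8 ± 43.2 CPM; edgeR adjusted p = 0.025). Il6 (154 counts against none) and Eng (289 counts against none) passed too. With no count in control EVs, Il6 and Eng entered the test through LPS EVs and could be called only as higher. Of all listed genes, 28.98% to 33.45% had no count in a control EV library, against 0.49% to 4.42% in LPS EVs. Hp, Slpi and Wfdc17 did not pass, with edgeR adjusted p of 0.324, 0.326 and 0.329. Both the 20 and the count of all genes became 0 when any 1 of the 3 LPS EV libraries was left out. In IL-10 EVs 0% of 8992 tested genes passed edgeR (177 at an unadjusted p under 0.05, 45 by DESeq2), and in TGF-β EVs 0% of 9093 (360 at an unadjusted p under 0.05, 77 by DESeq2), each against control EVs.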

How the data were processed

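Total RNA of cells and EVs was made into cDNA with SMART-Seq v4 and Nextera XT kits, per the labels' protocols, a method that does not mark strand. The authors deposited 6 tables of raw counts per gene; the control columns are identical between the tables of a compartment. DESeq2 is named in the submitters' processing notes, without a version. Aligner and build: not given in the sources used here. Listed genes have at least 240 counts over the 24 libraries. Columns carry the treatment and compartment, and library numbers only name them.

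Counts were scaled to CPM of the library total. Per-kilobase levels used union exon lengths of GENCODE M21, matched by symbol. Comparisons used edgeR 4.0.16 in R 4.3.3 (quasi-likelihood, TMM, filterByExpr, robust, two-sided, Benjamini-Hochberg over all genes tested, threshold 0.05), checked on simulated counts, with DESeq2 1.42.0 as an alternative. The other alternatives were RLE or library-total scaling, other filters, other sets of libraries and leaving out each library. On the simulated counts edgeR recovered 100% of 4-fold, 16-fold and 64-fold changes between LPS and control cells. Between LPS and TGF-β EVs it recovered 3.7%, 21.2% and 50%, and between LPS and IL-10 EVs 0%, 20.6% and 45.8%. Each treatment was fitted with its control (6 libraries), and treated EVs were fitted in 1 model of 12. The members and lists were chosen with earlier results of these data known. The text names the members, up to 4 genes per list and cell comparison by adjusted p (mean count of 50 or more in the group where it was higher), a fixed set of regulators, relatives and receptors, and the 5 genes most like each member (pseudocount 0.1 CPM), of which 1 for Lrg1 is not reported here. Acute-phase, relative, regulator, cytokine and receptor lists and markers of microglia, neutrophils, hepatocytes and astrocytes were used; astrocyte markers, 5 of 7 listed, summed to 225 to 239 CPM in LPS cells, 228 to 248 in IL-10 cells, 386 to 419 in TGF-β cells and 299 to 316 in control cells, and to 92 to 396 CPM in LPS EVs, 10.2 to 103 in IL-10 EVs, 0 to 122 in TGF-β EVs and 118 to 323 in control EVs. Ratios of EVs to cells without 1 EV library were added after seeing the data.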

Additional observations from a re-analysis of the deposited data

How the results depend on the processing

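No paired analysis was possible because the columns carry no number that ties a library of one group to one of another. In cells the direction of the fitted log2 fold changes of Saa3 (3 treatments), Lcn2 (LPS, IL-10) and Lrg1 (IL-10, TGF-β) held under the alternatives run; Wfdc21, with no control count, was left out. Without 1 library, Lcn2 ranged from 13.79 to 18.81 with LPS and from 2.06 to 6.92 with IL-10, both highest without control library 2. Calls of list genes lower with IL-10 numbered 8 to 15 without 1 library and 26 under scaling by library total, against 13. In EVs calls depended on the method. LPS against control EVs gave 1732 calls, 0 with a stricter filter (mean count of 50), 0 in a fit of all 12 libraries and 0 to 2599 without 1 library; the list genes higher were 20, 0, 0 and 0 to 30, and those lower 0, 1 by DESeq2 and 0 to 1 without 1 library. DESeq2 called 45 genes with IL-10 and 77 with TGF-β against control EVs, 2 of the latter list genes higher, where edgeR called 0. Between treated EVs DESeq2 called 974 (LPS and IL-10), 1143 (LPS and TGF-β) and 270 (TGF-β and IL-10), against 0, 6 and 0; fits of 6 libraries called 1811 and 2010 for the first 2 pairs, RLE scaling 22 for LPS and TGF-β, and leaving out a library 0 to 2 there and 0 to 1 for TGF-β and IL-10. Saa3 between LPS and TGF-β EVs passed by DESeq2 (3.87) and in 6 libraries (3.68), and ranged from 3.09 to 5.35 without 1 library (edgeR adjusted p 0.12 to 0.208). Without 1 library the log2 fold change ranged from -0.62 to 8.15 for Lrg1 and LPS, -3.17 to 0.26 for Lcn2 and IL-10, -1.67 to 0.30 for Saa3 and IL-10, -1.93 to 0.75 for Wfdc21 and IL-10 and -8.72 to 0.32 for Wfdc21 and TGF-β, each against control EVs. Between TGF-β and IL-10 EVs it ranged from -3.02 to 0.28 for Saa3, -2.25 to 2.10 for Lcn2 and -8.19 to 1.13 for Wfdc21. Of the 5 genes most like each member, a pseudocount of 1 kept 2 for Saa3, 2 for Lcn2, 3 for Lrg1 and 1 for Wfdc21, and Pearson's r kept 0, 2, 0 and 2. The causes were not tested. Where an EV library, at 3.02 to 17.98 M counts, had no count of Lrg1 or Wfdc21, a low level could not be told from 0.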
